A study of Mus musculus with 4 samples.

Results

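The 10 genes described here move phosphate or calcium across membranes, or set this traffic through vitamin D, and were followed in the spinal cord and the duodenum of mice labelled WT and IP6K2-KO. They were chosen by name: the phosphate exporter gene *Xpr1*, the sodium-phosphate cotransporter genes *Slc20a1*, *Slc20a2*, *Slc34a1* and *Slc34a2*, the calcium path genes *Trpv6*, *S100g* and *Atp2b1*, and the vitamin D genes *Vdr* and *Cyp24a1*. They made up 16 of the 39429 probes on the arrays, which represent 32585 genes or identifiers. RNA was hybridized to 1-colour arrays, with 1 array for each genotype and tissue and all 4 arrays on 1 slide. All mice were males of 20 weeks, the KO mice and their WT littermates, that had eaten the normal diet CE-2, then iVid-neo, a purified diet, over 1 week, and no food in the last 48 h. In the KO mice the exon that encodes the kinase domain of the inositol hexakisphosphate kinase IP6K2 was deleted in the whole body. Diet and fasting were thus shared by all 4 arrays.

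Phosphate enters cells through sodium-coupled carriers of the SLC20 and SLC34 families, and XPR1 carries it out. XPR1 has a cytosolic SPX domain, which binds inositol pyrophosphates, the molecules that IP6K enzymes make. In the duodenum calcium crosses the enterocyte by entering through the TRPV6 channel of the brush border, moving bound to calbindin-D9k, the product of *S100g*, and leaving through the plasma membrane calcium pump PMCA1, the product of *Atp2b1*. The vitamin D receptor, VDR, binds the active hormone and controls genes of this path as a dimer with a retinoid X receptor, and CYP24A1 starts the breakdown of the hormone.

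With 1 array per group, a difference between arrays had no replicate check, and no test was made. Each value below is the processed signal of a probe, an intensity in arbitrary units, and each difference is in log2 units after subtraction of the 75th percentile of its array. The 75th percentile was 905 for WT spinal cord, 971 for KO-labelled spinal cord, 68.0 for WT duodenum and 323 for KO-labelled duodenum, so raw signals of the duodenum arrays cannot be compared without this step. Between 51.6% (WT duodenum) and 77.4% (KO-labelled spinal cord) of probes were well above background, and the lowest such signal was between 4.29 and 4.47. The probe for *Ip6k2* was higher on the KO-labelled spinal cord array by 1.45 and differed by −0.21 in the duodenum. The files do not place it inside or outside that exon, so it cannot check the labels, and genotypes are named here as labelled. All 16 listed enterocyte genes were well above background on both duodenum arrays, and all 9 neuron genes on both spinal cord arrays. Because the tissues are bulk samples, fewer cells of a type and less RNA per cell cannot be told apart.

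Of the 10 genes, *Xpr1*, *Slc20a1*, *Slc20a2*, *Trpv6*, *Atp2b1* and *Vdr* were well above background on all 4 arrays by their brightest probe. *Slc34a2* was well above background on no array. In the duodenum, *Vdr* was the member at least 2-fold higher on the KO-labelled array and *S100g* the member at least 2-fold lower, which makes 1 higher and 1 lower of the 8 members well above background on at least 1 of the arrays. Across all 21436 genes measured in that comparison, 7.2% were at least 2-fold higher and 11.9% at least 2-fold lower. In the spinal cord, 0 members were at least 2-fold higher and 1 of 9, *Cyp24a1*, was at least 2-fold lower, against 2.28% and 0.864% of 25223 genes. The median difference of the members well above background on both arrays was 0.0011 in the duodenum (7 members) and −0.08 in the spinal cord (8 members), and that of all genes was −0.11 and −0.04.

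**Figure D1:**
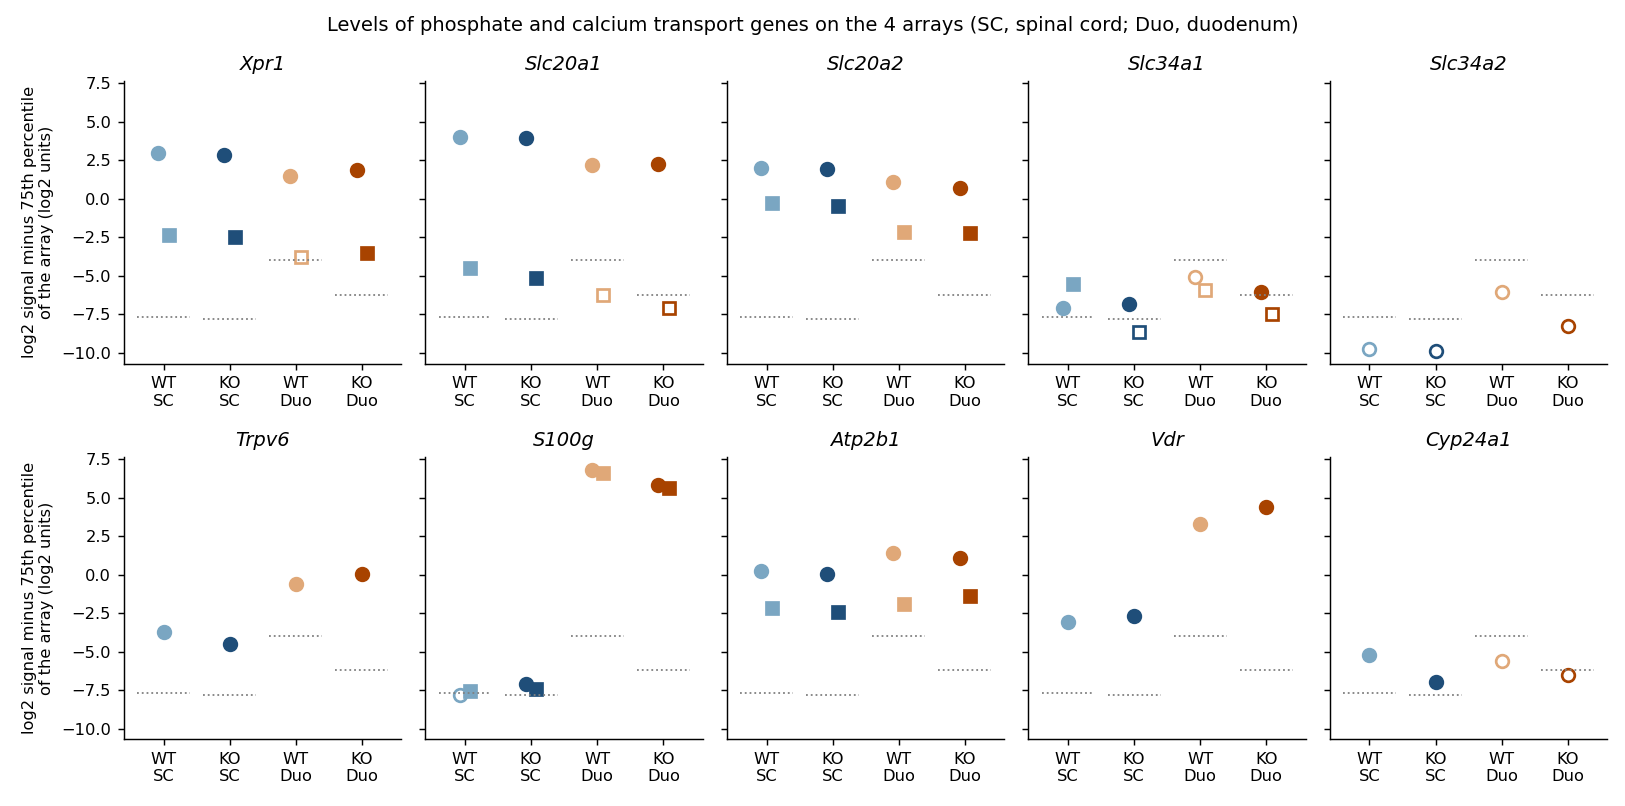
Level of each probe on each array, as log2 signal minus the 75th percentile of the array in log2 units, with SC for spinal cord and Duo for duodenum. Circles are the brightest probe and squares the second probe of a gene, open symbols are not well above background, and dotted lines mark the lowest level well above background on each array. *S100g* went from levels of −7.83 and −7.11 in the spinal cord to 6.81 and 5.81 in the duodenum, and *Vdr* from −3.09 and −2.69 to 3.29 and 4.35.

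*Xpr1* (NM_011273), whose product is the phosphate exporter, was measured by 2 probes. The brighter gave signals of 7019 in WT spinal cord, 7106 in KO-labelled spinal cord, 188 in WT duodenum and 1196 in KO-labelled duodenum. After scaling, it was higher by 0.42 on the KO-labelled duodenum array and differed by −0.08 between the spinal cord arrays. The technical SD, estimated from the 50 nearest in brightness of 399 probes spotted 10 times, was 0.077 and 0.056, and covers spots within an array, not mice. The duodenum difference is 1.34-fold and lay inside the spread of the genes of similar brightness, whose 95th percentile was 1.05. The second probe gave 177, 176, 5.04 and 28.9 in the same order of arrays, the WT duodenum value not being well above background, and its duodenum difference was at least 0.27 in the same direction.

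*Slc20a1* (NM_015747) and *Slc20a2* (NM_011394) code for PiT-1 and PiT-2, the widely expressed sodium-phosphate carriers that supply cells. *Slc20a1* gave 14444 and 14691 in WT and KO-labelled spinal cord and 319 and 1515 in WT and KO-labelled duodenum. Its differences between genotypes were 0.0011 (duodenum) and −0.08 (spinal cord), with technical SDs of 0.074 and 0.057. In the duodenum this difference was far inside the technical SD, whereas the raw signals followed the scale of the arrays. A second *Slc20a1* probe, listed for another transcript record (NM_001159593), was dim, with 39.8 and 27.9 in the spinal cord and values not well above background in the duodenum, and differed by −0.61 in the spinal cord.

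*Slc20a2* gave 3644 and 3791 in WT and KO-labelled spinal cord and 145 and 527 in WT and KO-labelled duodenum. Its differences were −0.38 (duodenum) and −0.04 (spinal cord), with technical SDs of 0.084 and 0.059. The second *Slc20a2* probe gave −0.07 in the duodenum which is less than its technical SD of 0.16, so the difference of the brighter probe was not repeated there.

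*Slc34a1* (NM_011392) and *Slc34a2* (NM_011402) code for NaPi-IIa, the main phosphate carrier of the kidney proximal tubule, and NaPi-IIb, the intestinal carrier, which in mice is found mostly in the ileum. *Slc34a2* gave 1.04, 1.04, 1.04 and 1.06 on the 4 arrays, none well above background, so that no difference can be given and these arrays cannot show whether it differs in the duodenum. For *Slc34a1*, the probe with the higher mean of scaled log2 levels gave 6.79 and 8.70 in WT and KO-labelled spinal cord, 2.0 in WT duodenum and 4.84 in KO-labelled duodenum, the WT duodenum value not being well above background. Between the spinal cord arrays it differed by 0.26, less than its technical SD of 0.32. The other probe was well above background on the WT spinal cord array alone, with a signal of 19.9 against 2.46 on the KO-labelled array, a log2 difference of −2.31 or beyond. The probes opposed each other, and both lay close to the lowest signals that count as well above background.

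The promoters of *S100g*, *Trpv6* and *Vdr*, the members with the largest differences between tissues, are shown because VDR and retinoid X receptors recognise pairs of the hexamer AGGTCA and its variants. Each runs from 250 bases before the annotated start to 50 after it, in the direction of transcription, taken from RefSeq on GRCm38.p6. Capitals mark AGGTCA or its reverse complement TGACCT, and the promoters lie at chrX:162964550-162964849 (*S100g*), chr6:41636356-41636655 (*Trpv6*) and chr15:97908247-97908546 (*Vdr*), all on the minus strand.
S100g: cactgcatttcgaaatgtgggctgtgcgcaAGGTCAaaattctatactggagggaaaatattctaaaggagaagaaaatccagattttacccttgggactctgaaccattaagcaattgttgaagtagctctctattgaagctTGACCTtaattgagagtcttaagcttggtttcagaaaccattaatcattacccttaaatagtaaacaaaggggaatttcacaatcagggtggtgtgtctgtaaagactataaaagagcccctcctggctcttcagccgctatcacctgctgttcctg
Trpv6: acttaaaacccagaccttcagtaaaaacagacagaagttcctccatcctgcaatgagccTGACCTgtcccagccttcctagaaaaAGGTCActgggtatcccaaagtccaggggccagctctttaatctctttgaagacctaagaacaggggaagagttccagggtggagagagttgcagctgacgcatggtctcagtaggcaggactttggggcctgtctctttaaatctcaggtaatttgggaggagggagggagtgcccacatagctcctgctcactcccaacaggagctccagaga
Vdr: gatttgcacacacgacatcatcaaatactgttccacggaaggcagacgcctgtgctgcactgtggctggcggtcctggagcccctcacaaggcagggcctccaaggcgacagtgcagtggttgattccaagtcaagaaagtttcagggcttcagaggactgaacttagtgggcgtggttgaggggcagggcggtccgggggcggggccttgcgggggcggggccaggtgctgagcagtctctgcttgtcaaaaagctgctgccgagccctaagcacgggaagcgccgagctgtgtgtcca
*S100g* and *Trpv6* each held 2 matches, *Xpr1* and each of the 2 promoters of *Slc20a1* held 1, and *Slc34a1*, *Slc34a2*, *Vdr* and both promoters of *Atp2b1* held 0. Of 32851 promoters of the same length, 16.3% held at least 1 match and 1.81% at least 2. In *S100g* the matches began 220 and 107 bases before the start, and in *Trpv6* 191 and 165 bases before it. In both promoters the 2 matches lay on opposite strands and apart from each other, so they were not read as a receptor pair. A match is a description of letters and not a binding site. The CpG count was 3 in *S100g*, 1 in *Trpv6* and 15 in *Vdr*, and the median promoter held 7. *Cyp24a1* and *Slc20a2* had no entry in the promoter table.

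*Trpv6* (NM_022413), the apical calcium channel, was measured by 1 probe with signals of 69.2 in WT spinal cord, 42.4 in KO-labelled spinal cord, 45.5 in WT duodenum and 331 in KO-labelled duodenum. It was higher by 0.62 on the KO-labelled duodenum array (technical SD 0.099) and lower by 0.81 on the KO-labelled spinal cord array, a log2 difference of −0.81 (technical SD 0.12). Neither difference reached 2-fold under the main setting, but the spinal cord value was −1.85 under normexp and −0.49 with flagged backgrounds replaced. Among genes of similar brightness the 95th percentile in the duodenum was 1.26 and the 5th percentile in the spinal cord was −0.54, so that the spinal cord value was outside the central range of such genes and the duodenum value inside it.

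*S100g* (NM_009789), the gene of the calcium buffer calbindin-D9k, was measured by 2 probes. The brighter gave 3.99 in WT spinal cord, not well above background, then 7.03 in KO-labelled spinal cord, 7645 in WT duodenum and 18049 in KO-labelled duodenum. After scaling it was lower on the KO-labelled duodenum array, with a log2 difference of −1.01 (technical SD 0.068), which is 2.01-fold and lies just past the 2-fold limit. The second probe gave 4.78, 5.70, 6591 and 15809, and a duodenum difference of −0.98 with a technical SD of 0.068, just inside that limit. In the duodenum bright genes were lower as a class on the KO-labelled array, by a median of −0.47 over 381 genes of the brightness of *S100g*, of which 19.4% were at least 2-fold lower. The difference of *S100g* was −0.40 under quantile normalization of the 4 arrays and −0.36 under normexp background correction, so the 2-fold size was not kept. Relative to the median gene its sign was the same under the main scaling and 8 other settings, between −0.89 and −0.18. Median centring and scaling on spiked-in controls shift all genes of an array alike, so they could not change that sign. The deposited table nearly repeats quantile normalization of the 4 arrays. In the spinal cord its brighter probe was higher by at least 0.55 on the KO-labelled array and its second probe by 0.15, with a technical SD of 0.40, at signals near the lowest that count as well above background.

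*Atp2b1* (NM_026482), which codes for the calcium pump PMCA1, was measured by 2 probes that disagreed in the duodenum. The brighter gave 1041, 1013, 183 and 688 in WT spinal cord, KO-labelled spinal cord, WT duodenum and KO-labelled duodenum, and the second gave 197, 181, 17.9 and 125. The duodenum difference was −0.33 by the brighter probe and 0.57 by the second, with technical SDs of 0.079 and 0.14, so no direction can be given for the gene. In the spinal cord both were slightly lower on the KO-labelled array, by differences of −0.14 and −0.22.

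*Vdr* (NM_009504), the gene of the vitamin D receptor, was measured by 1 probe with signals of 106 in WT spinal cord, 150 in KO-labelled spinal cord, 665 in WT duodenum and 6596 in KO-labelled duodenum. It was higher on the KO-labelled array in both tissues, by 1.06 in the duodenum (technical SD 0.070) and by 0.40 in the spinal cord (technical SD 0.084). The duodenum difference is 2.09-fold, and it went against the class of genes of its brightness, whose median was −0.23 and whose 95th percentile was 0.82. Of those 1132 genes 2.56% were at least 2-fold higher. The duodenum difference lay between 1.06 and 1.59 under the settings that do not scale on spiked-in controls. The spinal cord difference was inside the spread of similar genes, with a 95th percentile of 0.59, and was −0.85 under normexp background correction.

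*Cyp24a1* (NM_009996), whose enzyme degrades the active vitamin D hormone, was dim everywhere. Its probe gave 24.2 in WT spinal cord, 7.63 in KO-labelled spinal cord, 1.39 in WT duodenum and 3.50 in KO-labelled duodenum, and neither duodenum value was well above background, so no duodenum difference can be given. Between the cord arrays it was lower on the KO-labelled array by a log2 difference of −1.77 (technical SD 0.21), or 3.41-fold. Of 1825 genes of similar brightness 2.03% were at least 2-fold lower. With normexp correction in which flagged local backgrounds were replaced the difference was −0.39, with normexp alone −2.36 and under quantile normalization of the 4 arrays −1.48, so the sign was kept and the size was not.

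**Figure D2:**
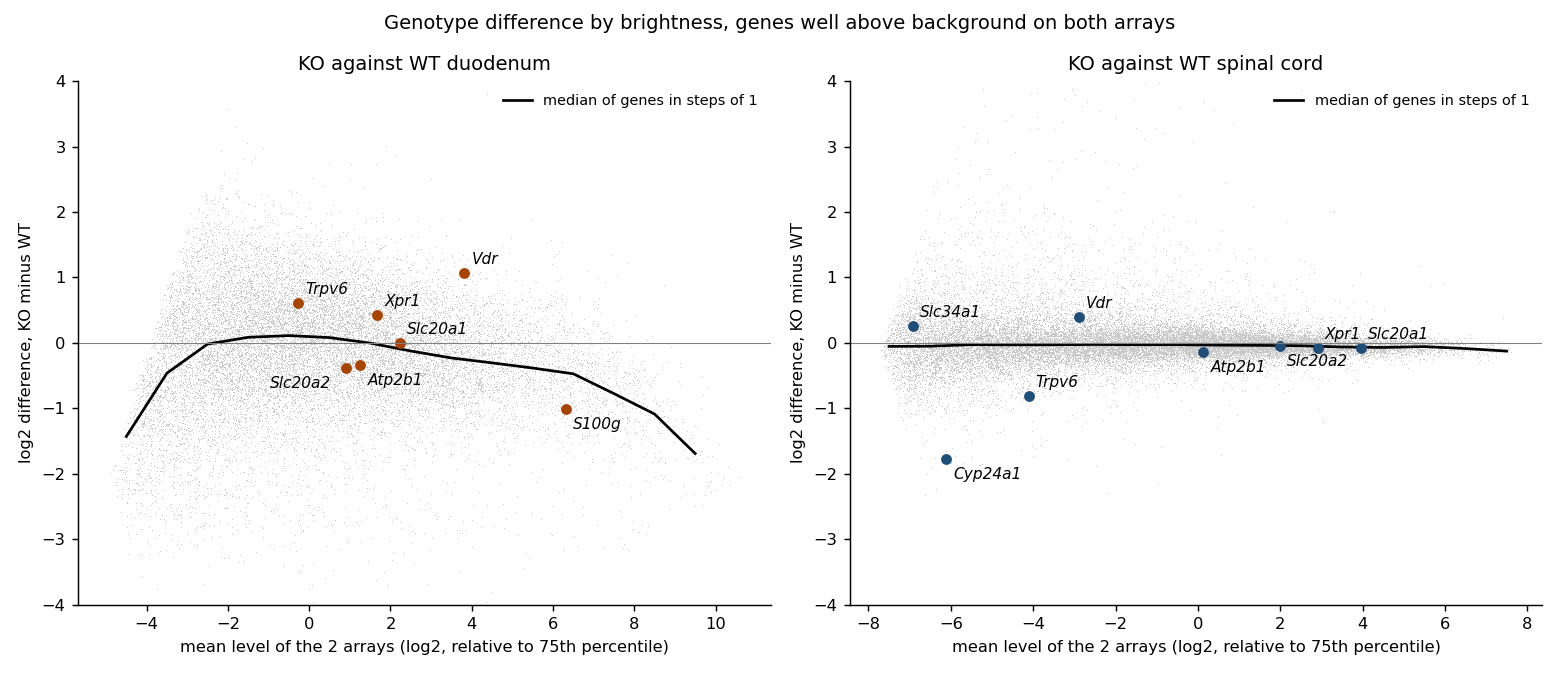
Log2 difference between KO-labelled and WT arrays against the mean level of both arrays, in log2 units relative to the 75th percentile, for the duodenum (left) and the spinal cord (right). Grey points are genes well above background on both arrays with differences within ±4, black lines join the medians of genes in steps of 1, and coloured points are the members. In the duodenum the medians fell to −1.09 and −1.69 in the brightest steps. *Vdr* lay above the median of its step, −0.23, and *S100g* below that of its step, −0.47.

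The differences between genotypes were therefore set against the median gene under other settings. *Xpr1*, *Trpv6* and *Vdr* in the duodenum and *Trpv6* and *Cyp24a1* in the spinal cord had the same sign relative to the median gene under the main setting and the 8 others that give each a value. The shift that scaling on spiked-in controls puts on all genes of an array cancels in this comparison.

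**Figure D3:**
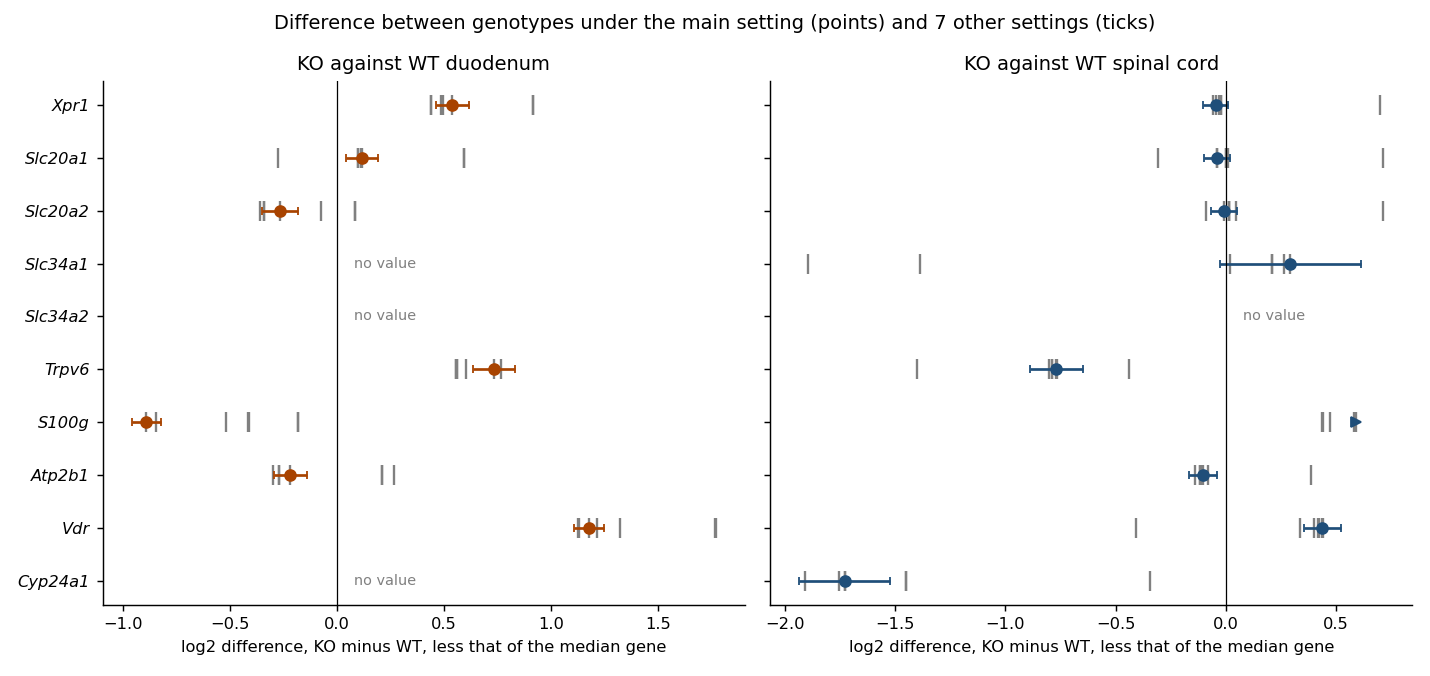
Log2 difference between KO-labelled and WT arrays less that of the median gene, for each member in the duodenum (left) and the spinal cord (right). Points are the main setting with the technical SD of spots as bars, a triangle is a lower bound, ticks are 7 other settings, and no value means not well above background on either array or a bound under 1-fold. *Vdr* in the duodenum was above 0 under every setting drawn and *S100g* below 0, while the duodenum ticks of *Atp2b1* lie on both sides of 0.

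Markers of cell types also differed between the arrays of a tissue. On the KO-labelled duodenum array all 14 listed pancreatic acinar genes were lower, by a median of −1.74. Of them 10 were at least 2-fold lower, beside 11.9% of all genes. Their summed level, in multiples of the 75th percentile of the array, was 7216 against 22557. All 6 measured genes of the blood list were at least 2-fold lower, with a median of −3.39 and sums of 88.4 against 1532. All 5 measured Paneth cell genes were lower, 4 of them at least 2-fold, with a median of −2.10. Of the gastric surface and Brunner gland list, 4 of 7 measured genes were at least 2-fold higher, beside 7.2% of all genes, and 2 were lower. Their median was 2.15 and their sums 1066 against 1280, lower on the KO-labelled array. Of the goblet cell list 6 genes were lower, 2 of them at least 2-fold, and 1 higher, with sums of 1204 against 2809. Of the smooth muscle list 7 were lower, 2 of them at least 2-fold, and 1 higher, with a median of −0.78. The enterocyte list, the cells that carry the calcium path, had 8 genes higher and 8 lower, a median of −0.04 and sums of 1646 against 3134. Bright genes were lower as a class on the KO-labelled duodenum array, by medians of −1.09 and −1.69 in the brightest steps. These lists were not set against genes of their own brightness. On the KO-labelled spinal cord array all 8 skeletal muscle genes were at least 2-fold higher, beside 2.28% of all genes, with sums of 46.7 against 2.83. All 6 Schwann cell genes were higher, 5 of them at least 2-fold, with sums of 32.7 against 6.86. All 7 blood genes were higher, 5 of them at least 2-fold, with sums of 351 against 228. Of the meninges and choroid plexus list 6 genes were higher, 5 of them at least 2-fold, and 3 lower, 0 of them at least 2-fold. Their median was 0.69, while the sums were 118 against 126. The part of these cell types in the differences of *S100g*, *Vdr*, *Trpv6* and *Cyp24a1* was not tested.

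Between tissues, the members *Trpv6*, *S100g*, *Atp2b1* and *Vdr* were higher in the duodenum and *Xpr1*, *Slc20a1* and *Slc20a2* higher in the spinal cord. On the WT arrays *Trpv6*, *S100g*, *Atp2b1* and *Vdr* were at least 2-fold higher in the duodenum and *Xpr1* and *Slc20a1* at least 2-fold lower, or 4 and 2 of 9 members. Of all 25223 genes measured, 30.2% were at least 2-fold higher and 23.1% lower. The contrast is one of these members and not of phosphate and calcium genes at large. Of 18 other phosphate genes measured on the WT arrays, 7 were at least 2-fold higher in the duodenum and 6 lower. Of 17 other calcium genes 5 were higher and 8 lower. On the KO-labelled arrays the same 4 members were higher and *Slc20a1* and *Slc20a2* were lower, against 30.3% and 25.4% of 25728 genes. These comparisons share their arrays with those between genotypes, so they are set side by side and not counted as further evidence.

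*S100g* differed most between tissues. It was at least 14.48 log2 units higher in the duodenum on the WT arrays, and 12.92 higher on the KO-labelled arrays, where its spinal cord signal was well above background. These sizes hold for the main scaling, since normexp, whose offset compresses dim values, gave a bound of 7.78 and a difference of 9.78. *Vdr* was higher in the duodenum by 6.38 on the WT arrays and 7.05 on the KO-labelled arrays, and *Trpv6* by 3.13 and 4.55. Among all genes the median difference was 0.63 on the WT arrays and 0.30 on the KO-labelled arrays, and the 95th percentiles were 4.91 and 3.90. On this scaling *S100g* and *Vdr* lay past the 95th percentile in both genotypes and *Trpv6* in the KO-labelled pair. In the WT pair, normexp gave 3.97 for *Vdr* and 1.28 for *Trpv6*, and scaling on spiked-in controls gave 1.35 for *Vdr*.

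*Atp2b1* was higher in the duodenum by 1.22 and 1.03 by its brighter probe and by 0.27 and 1.06 by its second. The value of 0.27, from the WT arrays, was below the median gene at 0.63. *Xpr1*, *Slc20a1* and *Slc20a2* ran the other way on the WT and KO-labelled arrays. The differences were −1.49 and −0.98 for *Xpr1*, −1.77 and −1.69 for *Slc20a1*, and −0.92 and −1.26 for *Slc20a2*. *Slc34a1* gave a value on the KO-labelled arrays alone, 0.74 with a technical SD of 0.34, and *Slc34a2* and *Cyp24a1* gave none. When arrays were scaled on the spiked-in controls, the median gene itself was −4.41 on the WT arrays and −1.57 on the KO-labelled arrays, and the signs of *Atp2b1* in both pairs, of *Trpv6* in the WT pair and of *Slc34a1* in the KO-labelled pair turned with it.

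**Figure D4:**
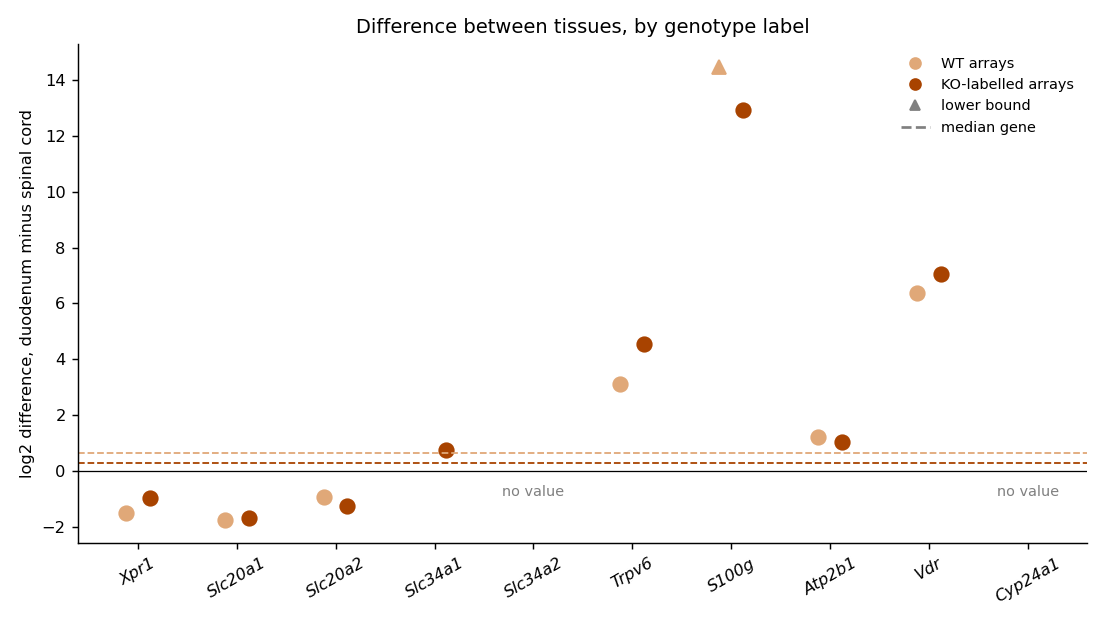
Log2 difference between duodenum and spinal cord for the brightest probe of each member, on WT arrays (light) and KO-labelled arrays (dark). Triangles are lower bounds, dashed lines are the median gene at 0.63 and 0.30, and no value means that neither pair gave one. *S100g*, *Vdr* and *Trpv6* lie above the medians, and *Xpr1*, *Slc20a1* and *Slc20a2* below 0.

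Other genes of the same pathways were read from lists of names. In the duodenum 1 of 16 measured phosphate genes was at least 2-fold higher and 1 lower on the KO-labelled array, with a median of 0.03, beside 7.2% and 11.9% and a median of −0.11 over all genes. *Slc17a4*, an intestinal anion and phosphate transporter gene, was higher by 1.36, with signals of 407 against 33.4. Its second probe was dim, with 6.50 against 2.19, and gave no difference. *Slc34a3*, the gene of the renal carrier NaPi-IIc, differed by −1.25, with signals of 14.9 against 7.48. Among genes of similar brightness 27.6% were at least 2-fold lower and the 5th percentile was −2.19, so this value lay inside their spread. Of 14 measured calcium genes 1 was at least 2-fold higher and 0 lower, with a median of 0.12. The higher gene was *Cldn2*, a claudin of cation-permeable tight junctions, with signals of 1040 against 83.1 and differences of 1.40 by its brighter probe and −0.65 by its second, so the probes opposed each other.

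Among 11 measured vitamin D genes 1 was at least 2-fold higher and 2 lower in the duodenum, with a median of −0.41. In a list of this length, these counts are close to the all-gene shares of 7.2% and 11.9%, as are those of the phosphate and calcium lists, and nothing is read from them about the lists. *Cubn*, the gene of cubilin, a receptor for vitamin D binding protein, was higher by 2.71, with signals of 1167 against 37.5, and its second probe was higher by at least 1.14. *Cyp2r1*, the gene of a hepatic vitamin D hydroxylase, differed by −2.12, with signals of 206 against 189, and its second probe by −1.12. *Rxrg*, a retinoid X receptor gene, differed by −1.25, with signals of 338 against 169, and its second probe was dim, with 4.49 against 1.79, and gave no difference. In the spinal cord, 0 of 16 phosphate, 0 of 16 calcium and 0 of 12 vitamin D genes were at least 2-fold apart, with medians of −0.05, −0.08 and −0.01, beside 2.28% of all genes higher and 0.864% lower.

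**Figure D5:**
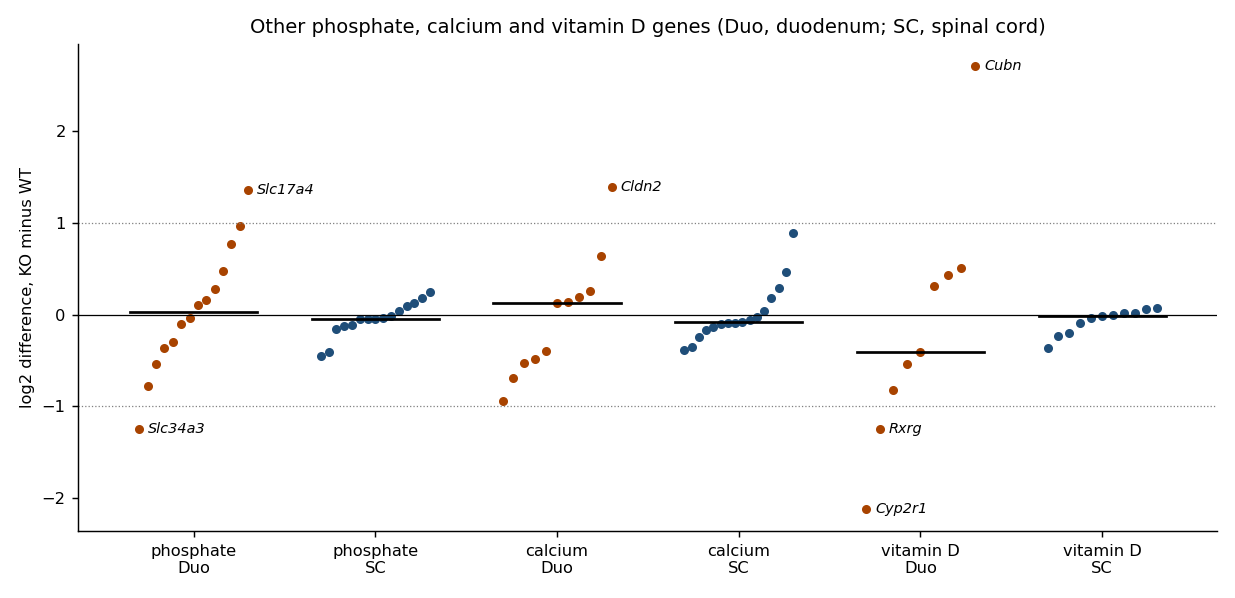
Log2 difference between KO-labelled and WT arrays for other genes of phosphate handling, calcium handling and vitamin D, well above background on both arrays, in duodenum (Duo) and spinal cord (SC). Each point is a gene, black bars are medians, dotted lines mark 2-fold, and genes past them are named. The spinal cord points lie within 2-fold, and in the duodenum *Cubn* at 2.71 and *Cyp2r1* at −2.12 lie farthest from 0.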

How the data were processed

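Total RNA of spinal cord and duodenum was labelled with Cy3 and hybridized to 1-colour mouse arrays, 1 array per group. Per the labels, the authors read the arrays with Agilent Feature Extraction 11.5.1.1. The deposited scanner output gives intensity values, of which the processed signal is background-subtracted and detrended within an array, and flags for spots. The deposited series table gives log2 values, which were rebuilt from the scanner files by quantile normalization of the 4 arrays, the member probes well above background differing by at most 0.00422. Its column medians were between 5.1148 and 5.117.

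Here, spots of control probes and flagged outliers were left out, log2 of each spot was taken and spots of a probe were averaged (R 4.3.3). The 75th percentile of the array was then subtracted (Python 3.11.15, numpy 2.4.6, pandas 2.3.3). Of several probes for a gene, the one brightest on average over all arrays was used. A probe not well above background on 1 array gave a lower bound, against the higher of its own level and the lowest level well above background there, and no difference where that bound was under 1-fold or both arrays were dim. At least 2-fold is a rule of size. The number of arrays limits precision, and no p-value or SE was computed.

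Alternatives were normexp background correction (limma 3.58.1, R 4.3.3, offset 50), the same with flagged local backgrounds replaced, quantile normalization of all arrays or within a tissue, median centring, scaling on 8 spiked-in control probes, the deposited table, the mean of all probes, 2 filters on dim probes and a 1.5-fold limit. Of 26391 probes with a RefSeq mRNA accession, 25862 matched the RefSeq gene table. All 10 members were named, and from each list of other genes up to 3 per tissue at least 2-fold apart and well above background on both arrays. The members and lists were chosen with earlier results of these data known. The steps were tested on simulated data.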

Additional observations from a re-analysis of the deposited data

Results flagged for a closer look

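For 3 members the difference between KO-labelled and WT arrays had opposite signs in the 2 tissues. In each case the difference between tissues was not tested, because each group was 1 array. For *Trpv6* the duodenum difference exceeded that of the spinal cord by 1.42 log2 units (0.62 against −0.81), and the signs stayed opposite under every setting run. For *Xpr1* the gap was 0.51 (0.42 against −0.08), and under normexp background correction the spinal cord difference turned to 0.25. Relative to the median gene the spinal cord difference of *Xpr1* was −0.05, less than its technical SD of 0.056. No direction is read from it in that tissue. For *S100g* the gap was −1.56 (−1.01 against a bound of 0.55), with spinal cord signals of 3.99 and 7.03 at the edge of background. Its second probe, well above background on all 4 arrays, gave a spinal cord difference of 0.15, less than its technical SD of 0.40. No direction is read for *S100g* in the spinal cord.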

How the results depend on the processing

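No paired analysis was possible because each group held 1 array, and no replicate could be left out. For single members' differences, 148 alternative values moved by less than the technical SD, 130 moved by more and 13 reversed. Some of the 148 could not move. The 2 filters on dim probes leave the difference of a gene well above background on both arrays as it was. The mean of probes does the same for a gene with a single probe. The 148 is therefore not a measure of stability. A reversal was counted where the reported difference was larger than its technical SD. Differences smaller than that also changed sign, for *Slc34a1* (−2.34 under normexp, −0.03 with flagged backgrounds replaced, −1.43 with the mean of probes) and *Slc20a2* (0.27 under normexp) in the spinal cord and *Slc20a1* (−0.43 with the mean of probes) in the duodenum. Reversed under normexp were *Xpr1* (0.25), *Slc20a1* (0.27) and *Vdr* (−0.85) in the spinal cord and *Atp2b1* in the duodenum (0.028, and 0.027 with flagged backgrounds replaced), the last also with the mean of its probes (0.12). Reversed under scaling on spiked-in controls, where the median gene moved to 2.89 between the duodenum arrays, −4.41 between the WT tissues and −1.57 between the KO-labelled tissues, were *Slc20a2* (2.62), *S100g* (1.99) and *Atp2b1* (2.67) in the duodenum, *Trpv6* (−1.91) and *Atp2b1* (−3.82) between WT tissues, and *Slc34a1* (−1.12) and *Atp2b1* (−0.84) between KO-labelled tissues. These follow from that shift of all genes, and for the others the cause was not tested.

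The count of members at least 2-fold lower in the KO-labelled duodenum, 1 as reported, was 0 under both normexp settings, both quantile normalizations, median centring, spiked-in controls, the deposited table and the mean of probes, and 2 without a filter on dim probes. The count higher there, 1 as reported, was 7 under spiked-in controls and 2 at 1.5-fold. The count lower in the KO-labelled spinal cord, 1 as reported, was 3 under normexp (*Cyp24a1*, *Slc34a1* and *Trpv6*), 0 with flagged backgrounds replaced, and 2 with the mean of probes or at 1.5-fold. Between WT tissues, spiked-in controls gave 2 higher and 7 lower in place of 4 and 2. Between KO-labelled tissues the count lower, 2 as reported, was 1 under median centring and 5 under spiked-in controls.

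Over all genes the counts at least 2-fold apart moved as well. Over the alternatives, the duodenum gave 841 to 20611 higher and 18 to 12540 lower (1543 and 2552 as reported), the spinal cord 86 to 1318 and 19 to 9653 (576 and 218), the WT tissues 860 to 16461 and 2867 to 23284 (7618 and 5815), and the KO-labelled tissues 2452 to 12913 and 3736 to 16704 (7799 and 6526). The split turned in places. For the duodenum the deposited table had 3281 genes higher against 1876 lower and normexp 843 against 3063. Between WT tissues the table had 6661 against 9484, and for the spinal cord normexp had 86 against 9653. Quantile normalization of the 4 arrays, which nearly rebuilds the table, gave 1522 against 1885 in the duodenum and 6670 against 6202 between WT tissues. The table and its rebuild were thus close in the count lower in the duodenum and in the count higher between WT tissues. They were apart in the other direction of each comparison, and the reason was not tested. On the WT duodenum array, where 51.6% of probes were well above background, *Slc34a1*, *Slc34a2* and *Cyp24a1* were not.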
